A study of Mus musculus with 6 samples.

Results

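Cortical layer markers are genes whose transcripts concentrate in neurons of particular layers of the cerebral cortex. The set followed here held 38 genes, listed by gene symbol: 14 of the upper layers and 24 of the deep layers and the subplate. A probe set naming a single gene was found for 37 of the 38, and 36 passed the filter on low signal (a mean over the arrays no lower than 89.0, which is the median probe set), 13 of the upper layers and 23 of the deep layers and subplate, out of 18194 genes named on the array and 11499 past the filter. Mdga1, an adhesion protein of upper-layer neurons, did not reach the filter, at 57.1, 103.9 and 56.3 in the Reln KO, Dab1 KO and double KO mice and 82.4, 73.0 and 63.5 in the Vldlr KO, Apoer2 KO and WT mice. Etv1, a transcription factor of layer V, has only probe sets that also name another gene and is given no value.

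Expression was measured on 6 microarrays, each hybridized with RNA of 1 frontal lobe of cortex, taken at an age of 21 days from mice on a mixed C57BL/6 and 129 background, untreated, with 1 animal per genotype. The mutants were a Reln knockout (Reln KO), a Dab1 knockout (Dab1 KO), a knockout of both reelin receptors (Apoer2-Vldlr KO, the double knockout), a Vldlr knockout and an Apoer2 knockout, and the last group was wild type (WT). The double and single receptor knockouts and WT came from one cross of double heterozygotes, and the Dab1 and Reln mutants from crosses of their own, from which no wild type was analysed here. The Reln, Dab1 and double knockouts are the 3 reeler models of the study's title, and the Vldlr knockout, Apoer2 knockout and WT arrays are called the comparison arrays. The labels used here do not name the alleles, and no genotype has a replicate.

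Cortical projection neurons are born deep in the developing wall and migrate outward, so that in the normal cortex later-born neurons settle above earlier-born ones. Reelin, a secreted protein made by cells near the surface, acts through the receptors Vldlr and Apoer2 and the adaptor Dab1, and without it the order of the layers is disturbed, with deep-layer neurons lying too high and upper-layer neurons too low. Layer markers are therefore the genes used to show misplacement on tissue sections. Array signal from a whole lobe gives the amount of each transcript and not its position, and in such samples fewer cells of a type and less RNA per cell cannot be told apart.

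The arrays stood apart in several ways that bear on these genes. Reln read 79.9 on the Reln knockout array and 1498 to 1880 elsewhere, Lrp8 (the gene of Apoer2) 13.7 and 4.2 on the double and Apoer2 knockout arrays and 342.4 to 379.8 elsewhere, and Vldlr 185.6 and 187.3 on the double and Vldlr knockout arrays and 357.6 to 551.6 elsewhere. Dab1 read 478.5 on the Dab1 knockout array and 516.4 to 626.0 elsewhere, so its signal does not mark that genotype clearly. All animals are labelled male, but the X-inactivation RNA Xist read 3368 to 4006 on 5 arrays and 124.9 on the Apoer2 knockout array, which also read 3705 for growth hormone (Gh) against 13.1 to 32.4 elsewhere. Genes of other brain regions gave signal on every array. The 12 genes of cerebellar granule cells summed to 4813 to 6043 in the reeler models and 12952 to 16103 on the comparison arrays, and the granule cell GABA receptor gene Gabra6 read 106.6 to 251.5 against 1248 to 2015. Forebrain content was read with 9 genes of forebrain excitatory neurons, which are not particular to the frontal cortex and so cannot check that label. Among them were Camk2a (2636 to 4938 in reeler models, 2810 to 3516 on comparison arrays), Neurod6 (433.6 to 684.4 and 469.7 to 687.6) and Nrgn (2462 to 3156 and 2687 to 2828). The summed signal of the 9 genes was 13315 to 18863 in the reeler models and 14510 to 15879 on the comparison arrays. Further lists gave summed signals of 10401 to 11275 in reeler models and 9099 to 9628 on comparison arrays for the striatum, 3078 to 4747 and 3830 to 4588 for the hippocampus, and 5307 to 5732 and 6041 to 6538 for the thalamus. They were 7366 to 7868 and 6000 to 8976 for the choroid plexus and 9947 to 12973 and 12992 to 13291 for Purkinje cells. For the olfactory bulb they were 2272 to 2737 and 2988 to 3343, for the hypothalamus 2201 to 3311 and 2287 to 2755, and for interneurons 17735 to 19149 and 16115 to 17494. For the meninges they were 7754 to 8383 and 7569 to 8553, and for the pituitary 362.4 to 394.1 and 311.8 to 4501, the last on the Apoer2 knockout array. Several layer markers are also made in these regions (Pcp4 and Foxp2 in Purkinje cells, Bcl11b and Foxp2 in the striatum, Rorb in the thalamus, Htr2c in the choroid plexus), and the part of these regions in any difference below was not tested.

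The upstream sequences of 3 members are shown for their place in the comparison reported below: Cux2 had the highest upper-layer difference, Sulf2 was the deep-layer member with no overlap between classes, and Moxd1 had the lowest deep-layer difference. Each runs from 250 bases before to 50 bases after an annotated transcription start (RefSeq, GRCm38.p6), and capitals mark a match to the homeodomain core TAATTA, the POU octamer ATGCAAAT, the CUX core ATCGAT or the T-box site AGGTGTGA on either strand. They lie at chr5:122047776-122048075 on the minus strand for Cux2 (the second of its 2 starts), chr2:166155634-166155933 on the minus strand for Sulf2 (the first of 2) and chr10:24223267-24223566 on the plus strand for Moxd1.
Cux2: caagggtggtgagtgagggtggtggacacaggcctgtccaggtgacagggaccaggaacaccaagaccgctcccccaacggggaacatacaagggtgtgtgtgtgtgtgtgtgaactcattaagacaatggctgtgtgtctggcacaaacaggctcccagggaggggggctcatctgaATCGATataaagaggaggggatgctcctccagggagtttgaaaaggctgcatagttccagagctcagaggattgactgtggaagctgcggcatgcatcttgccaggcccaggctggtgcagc
Sulf2: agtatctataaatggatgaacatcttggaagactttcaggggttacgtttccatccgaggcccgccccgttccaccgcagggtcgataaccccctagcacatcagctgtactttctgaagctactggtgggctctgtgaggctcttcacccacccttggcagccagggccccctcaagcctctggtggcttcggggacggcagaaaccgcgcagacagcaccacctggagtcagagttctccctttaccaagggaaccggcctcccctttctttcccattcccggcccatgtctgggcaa
Moxd1: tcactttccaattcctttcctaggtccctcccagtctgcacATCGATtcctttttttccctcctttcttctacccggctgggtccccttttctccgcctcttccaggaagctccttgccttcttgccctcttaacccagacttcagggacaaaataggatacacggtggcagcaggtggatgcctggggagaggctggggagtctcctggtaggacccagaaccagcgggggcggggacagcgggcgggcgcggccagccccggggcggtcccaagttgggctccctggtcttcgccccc
In all, 42 such windows were found for 29 of the 38 members, and none for Ccn2, the highest deep-layer member. Of the 2 Cux2 windows the one with a match is shown. The other windows of Cux2 and Sulf2, and those of Lhx2, the lowest upper-layer member, are not shown and held no such match. The CUX core occurred in 2 of the 42 windows, those of Cux2 and Moxd1 shown above, and in 0.925% of 32851 windows of all genes. The homeodomain core occurred in 3 windows, of Mef2c, Syt6 and Tbr1, against 5.29% of all windows. The POU octamer and the T-box site occurred in 0 of the 42, against 1.74% and 1.28% of all windows. Member windows held a median of 19 CpG pairs and 63.0% G and C, against 7 pairs and 52.7% over all windows. These are matches of letters only.

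The first question was whether layer markers changed in the reeler models as a class. None of the 36 members passed an adjusted p of 0.05 in limma, where 0.13% of 11499 genes did (15 genes). The 2 members with an unadjusted limma result under 0.05, Cux2 and Sulf2, both read higher in the reeler models, and these 2 were also the members whose classes did not overlap. Over all genes, 5.23% were higher and 5.81% lower by the unadjusted threshold, and 9.04% were higher and 8.67% lower without overlap, where the members' shares were 5.56% higher and 0% lower by either criterion. Without the trended prior the adjusted test also called 0 members.

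The upper-layer members had a median log2 difference, reeler models minus comparison arrays, of 0.07, with 7 above 0 and 6 below. The deep-layer and subplate members had a median of 0.05, with 14 above 0 and 9 below. The median over all 11499 genes was 0.0084. Differences ran from -0.27 (Lhx2) to 0.53 (Cux2) in the upper-layer set and from -0.33 (Moxd1) to 0.56 (Ccn2) in the deep-layer set. Without the Apoer2 knockout array, whose sex genes differ from the others, the medians were 0.06 and 0.03. The deep-layer median was -0.02 without the Dab1 knockout array and 0.0027 without the WT array.

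**Figure D1:**
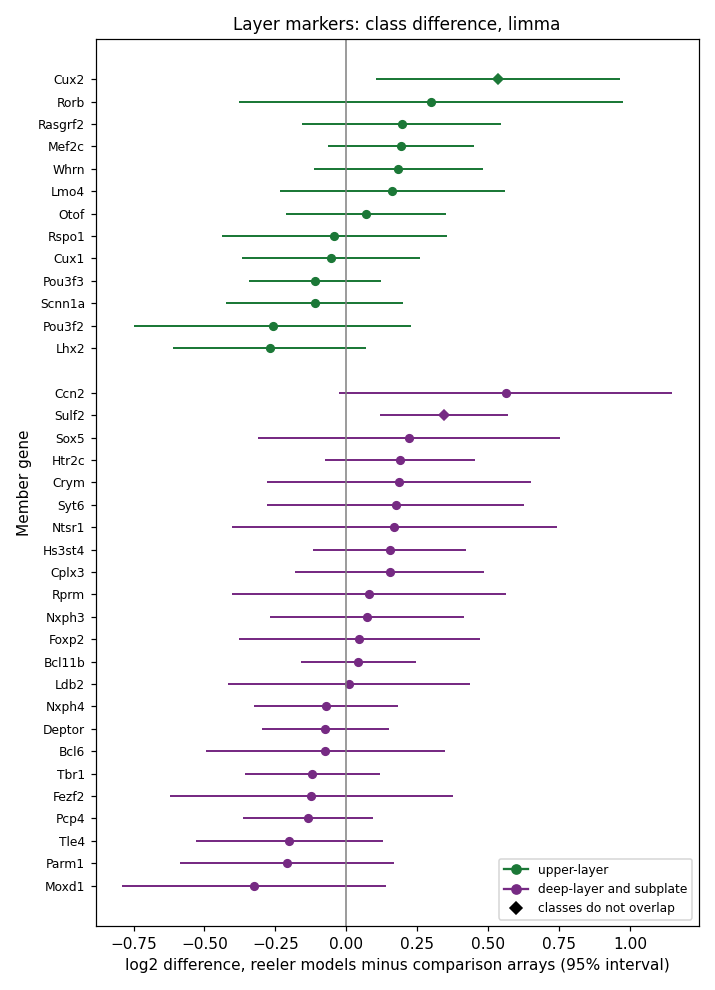
Each point is the log2 difference of 1 member gene, reeler models minus comparison arrays, with its 95% interval from limma (x axis), for 13 upper-layer and 23 deep-layer and subplate members (y axis), and diamonds mark genes whose classes do not overlap. The points run from -0.33 for Moxd1 to 0.56 for Ccn2, and the intervals of Cux2 and Sulf2 are the ones that leave out 0.

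Among upper-layer transcription factors, Cux2, a homeodomain protein of layers II to IV that shapes dendrites and spines, stood highest. It gave signals of 651.4 (Reln KO), 427.1 (Dab1 KO) and 379.5 (double KO) in the reeler models, and of 315.1 (Vldlr KO), 362.4 (Apoer2 KO) and 282.4 (WT) on the comparison arrays. Later triplets of values keep this order of arrays. Every reeler model lay above every comparison array, and the Reln knockout array lay furthest out. The log2 difference was 0.53 (SE 0.19, 1.45-fold, limma adjusted p = 0.385), and 0.31 without the Reln knockout array. The other probe sets of Cux2 did not show this: one read 245.1, 206.1 and 257.5 in the reeler models and 242.4, 266.0 and 199.6 on the comparison arrays (log2 difference 0.0042), and another differed by -0.12. With the mean of its probe sets Cux2 differed by 0.14, with overlap between classes. With the cross as a covariate it differed by 0.23. That covariate marked the Reln and Dab1 knockout arrays together. Here and below, the difference under it is therefore that of the double knockout array alone from the mean of the comparison arrays.

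Cux1, the close relative of Cux2 in the same layers, had a log2 difference of -0.05 (SE 0.14) at its brightest probe set. Its signals there, 405.1, 517.6 and 549.2 in the reeler models and 574.2, 496.0 and 455.7 on the comparison arrays, overlapped widely. Cux1 has 6 probe sets past the filter, chosen for a closer look after their values were seen, and all 6 differed in the same direction, by -0.02 to -0.97. In 3 of them the classes did not overlap. Over the 65 member probe sets past the filter these 3 were the ones lower without overlap, against 9.7% of 19939 probe sets, and 4 were higher, against 7.95%. One of these read 156.5, 177.9 and 232.9 in the reeler models and 273.2, 332.8 and 247.2 on the comparison arrays (log2 difference -0.53, adjusted p = 0.339 in limma over all probe sets). With the mean of its probe sets the log2 difference of Cux1 was -0.33 (adjusted p = 0.418). Signs also differed elsewhere: of 29 further probe sets past the filter, for 14 members, 18 ran the same way as the probe set used and 11 the other way.

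The POU factors Pou3f2 and Pou3f3, which act together in making upper-layer neurons, did not separate the classes. Pou3f2 read 72.1, 133.7 and 140.9 in the reeler models and 144.1, 157.0 and 119.3 on the comparison arrays. Its log2 difference of -0.26 (SE 0.21, adjusted p = 0.661) came with 1 low array, the Reln knockout, and the Dab1 and double knockout arrays lay within the comparison range. Pou3f3 read 785.7, 861.4 and 913.4 against 849.9, 1020.9 and 905.9 (log2 difference -0.11). Lhx2, a LIM homeodomain factor needed for cortical identity, read 349.7, 498.2 and 527.8 in the reeler models and 567.3, 568.0 and 518.3 on the comparison arrays. The double knockout array overlapped WT, and the log2 difference was -0.27 (SE 0.15, adjusted p = 0.531), or -0.10 without the Reln knockout array.

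Mef2c, a transcription factor that limits excitatory synapses, read 2917, 3755 and 3656 in the reeler models and 3298, 2959 and 2743 on the comparison arrays, with the Dab1 and double knockout arrays highest and the Reln knockout array below the Vldlr and Apoer2 knockouts (log2 difference 0.19, SE 0.11). Rasgrf2, an exchange factor for Ras and Rac of layers II and III, read 1078, 1460 and 1715 in the reeler models and 1313, 1163 and 1171 on the comparison arrays, again with the Reln knockout array low (0.19, SE 0.15). Lmo4, a LIM-only cofactor, gave 744.1, 1120 and 1120 in the reeler models and 1042, 817.5 and 775.5 on the comparison arrays (0.16, SE 0.17). For these 3 genes, at the probe sets used, the Dab1 and double knockout arrays exceeded all comparison arrays and the Reln knockout array did not. At every other Mef2c probe set past the filter the double knockout array lay below the Vldlr knockout array (1857.5 against 2095.9 at the brightest of them). The other Rasgrf2 probe set past the filter read 303.2 on the Dab1 knockout array and 369.7 in WT, with a log2 difference between classes of -0.10. Without the Reln knockout array 7 members lay higher in the other 2 reeler models without overlap, against 15.9% of all genes, and 2 lay lower, against 13.3%. In that comparison Rasgrf2 differed by 0.38 (limma adjusted p = 0.349) and Mef2c by 0.31 (adjusted p = 0.349). Without the double knockout array Rasgrf2 differed by 0.05, and with the cross as a covariate by 0.49, while Mef2c differed by 0.13 without the Dab1 knockout array. Over all settings Rasgrf2 ran from 0.05 to 0.49 and Mef2c from 0.09 to 0.32.

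Rorb, the nuclear receptor that marks layer IV, varied most among the upper-layer members. It read 249.1, 236.5 and 312.4 in the reeler models and 383.4, 149.7 and 155.4 on the comparison arrays. All reeler models exceeded the Apoer2 knockout and WT arrays, but the Vldlr knockout array was the highest of the 6, and the log2 difference was 0.30 (SE 0.30, adjusted p = 0.715). Without the Vldlr knockout array it was 0.69 (adjusted p = 0.174), the lowest adjusted p of any member under any setting tried. With the mean of its 3 probe sets, 2 of them below the filter, it was 0.0019. Of the other layer IV markers, Scnn1a, an epithelial sodium channel subunit, read 154.1, 120.1 and 126.5 in the reeler models and 143.0, 137.2 and 158.3 on the comparison arrays (-0.11, SE 0.14). Rspo1, an activator of Wnt signalling, read 75.1 to 114.4 in the reeler models and 85.0 to 113.6 on the comparison arrays, close to the filter. Among the remaining upper-layer members, Otof, the exocytosis protein otoferlin (164.3 to 196.9 and 165.8 to 186.8), and Whrn, the scaffold protein whirlin (212.0 to 277.5 and 190.4 to 225.6), overlapped between classes too.

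**Figure D2:**
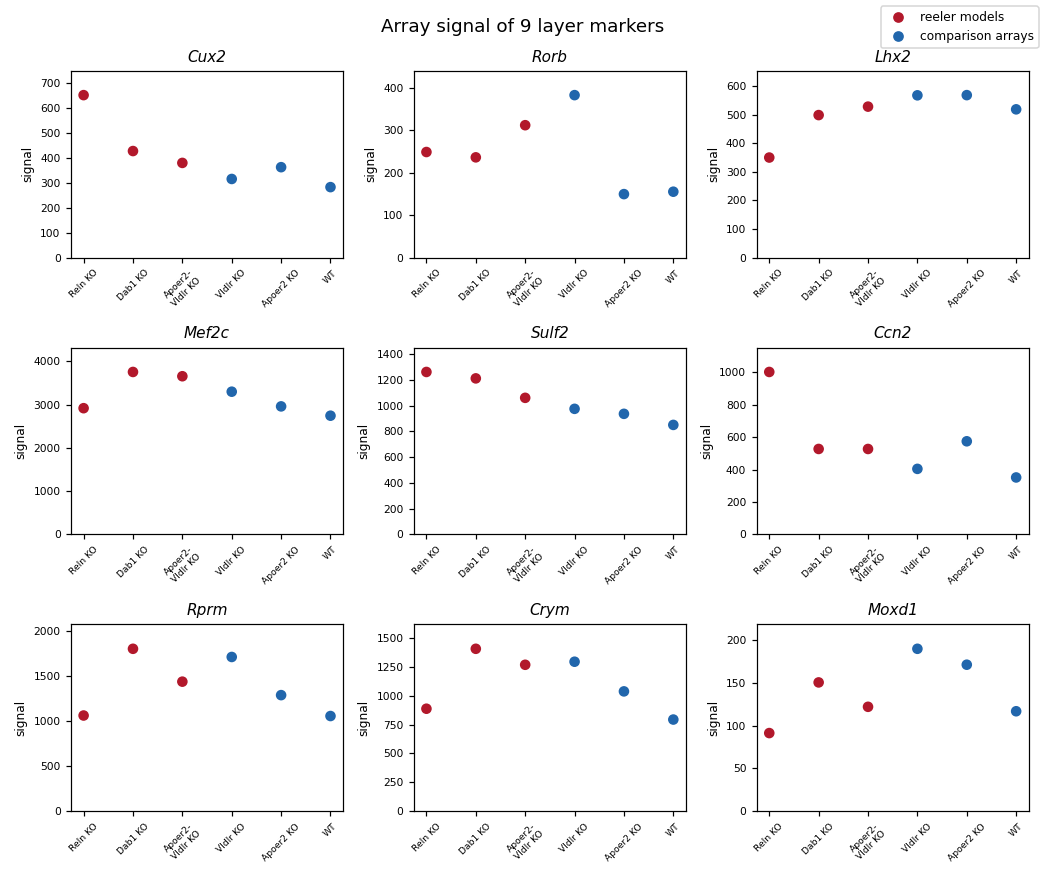
Array signal on a linear scale (y axis, from 0) of 9 layer markers on each of the 6 arrays (x axis), with reeler models in red and comparison arrays in blue. For Cux2 and Sulf2 every reeler array lies above every comparison array, whereas the Vldlr knockout array is highest for Rorb (383.4) and the Reln knockout array is highest for Ccn2 (1002).

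Among deep-layer members, the transcription factors and cofactors that specify projection neuron types overlapped between classes at the probe sets used, with log2 differences from -0.20 (Tle4) to 0.22 (Sox5). Bcl11b (Ctip2), which specifies subcerebral projection neurons, read 672.5, 687.2 and 701.3 in the reeler models and 713.6, 658.6 and 628.8 on the comparison arrays (log2 difference 0.04, SE 0.09, 95% interval -0.16 to 0.24). Its SD over the 6 arrays was 0.06 on the log2 scale, against a median of 0.16 over all genes. Fezf2, which acts upstream of Bcl11b, read 79.4, 161.9 and 99.7 against 144.7, 106.9 and 116.9 (-0.12, SE 0.22). Tbr1, the T-box factor of layer VI and the subplate, read 330.4, 383.0 and 354.3 in the reeler models and 403.5, 403.1 and 360.8 on the comparison arrays (-0.12, SE 0.10, interval -0.36 to 0.11). Sox5, which times the production of deep-layer neurons, read 209.9, 114.5 and 154.9 against 182.2, 104.0 and 113.6 (0.22, SE 0.23). A second Sox5 probe set past the filter differed the other way (-0.16). Foxp2 (0.05, SE 0.19), the repressor Bcl6 (-0.07, SE 0.18) and the cofactor Ldb2 (0.0080, SE 0.19) also overlapped between classes there. A second, dimmer Bcl6 probe set past the filter ran the other way, higher in the reeler models without overlap (0.27). It read 235.8, 192.2 and 208.6 against 167.6, 186.6 and 158.5. The corepressor Tle4, of corticothalamic neurons, read 421.0, 604.3 and 559.6 against 670.5, 540.5 and 610.4 (-0.20, SE 0.14).

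Sulf2, a sulfatase that edits heparan sulfate outside the cell, was the deep-layer member whose classes did not overlap. It read 1262, 1212 and 1061 in the reeler models and 975.5, 936.7 and 850.6 on the comparison arrays, 1178 ± 105 and 921 ± 63.9 (SD, n = 3 each). All 3 reeler models were above all 3 comparison arrays, by 0.34 on the log2 scale (SE 0.10, 1.27-fold, limma adjusted p = 0.299). A second probe set followed it, with 958.7, 983.1 and 837.3 in the reeler models and 784.5, 737.2 and 705.8 on the comparison arrays (0.31). The remaining, dimmer one read 104.6, 240.6 and 207.7 against 219.3, 313.1 and 271.3, the other way (-0.53). With the mean of all of them Sulf2 differed by 0.04, with overlap, and with the cross as a covariate by 0.20. Without the Apoer2 knockout array the difference at the brightest probe set was 0.36 (adjusted p = 0.616), and without the WT array 0.29 (adjusted p = 0.752). Hs3st4, which adds sulfate to heparan sulfate in layer VI, read 662.3, 716.1 and 675.3 in the reeler models and 725.0, 586.7 and 539.8 on the comparison arrays (0.15, SE 0.12), so that the Vldlr knockout array was highest.

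Layer V and VI members of other functions included Pcp4, a regulator of calmodulin, which read 4522, 5926 and 5179 in the reeler models and 5652, 6047 and 5393 on the comparison arrays (-0.14, SE 0.10). Crym, a thyroid hormone-binding protein, read 887.8, 1407 and 1269 in the reeler models and 1295, 1038 and 794.0 on the comparison arrays, and was highest on the Dab1 knockout array and lowest in WT (0.19, SE 0.20). Rprm, a mediator of cell cycle arrest made in layer VI, read 1064, 1806 and 1441 in the reeler models and 1715, 1291 and 1059 on the comparison arrays, with the Reln knockout and WT arrays about equal (0.08, SE 0.21). For these 3 genes the reeler models spanned most of the range of the 6 arrays. The serotonin receptor gene Htr2c (880.8 to 1135 in reeler models, 852.9 to 981.4 on comparison arrays), the neurexophilin Nxph3 (490.5 to 711.2 and 505.7 to 649.2) and the mTOR inhibitor Deptor (281.5 to 311.4 and 310.2 to 317.4) overlapped between classes. Parm1 was low on the Reln knockout array alone, at 455.6 there, 660.2 on the Dab1 and 729.7 on the double knockout array, against 782.6, 651.4 and 678.9 on the comparison arrays (-0.21, SE 0.16). The vesicle protein Syt6 and the neurotensin receptor Ntsr1, both of layer VI, were high on the Reln knockout array alone. Syt6 read 276.6, 162.0 and 164.6 against 147.7, 196.1 and 169.4, and Ntsr1 read 165.7, 84.8 and 73.6 against 109.2, 73.3 and 84.5. The mean of Ntsr1 over the other arrays lies below the filter of 89.0, so it passed only through the Reln knockout array.

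The subplate, the deepest and earliest-born cortical layer, was represented by Ccn2, Cplx3, Moxd1 and Nxph4, which did not share a direction. Ccn2, a secreted matrix-associated protein, had the largest difference of all members and the largest SD over the 6 arrays (0.50 on the log2 scale). It read 1002, 526.8 and 526.7 in the reeler models and 404.0, 574.1 and 351.0 on the comparison arrays. The Apoer2 knockout array lay above the Dab1 and double knockout arrays, so the classes overlapped, and the log2 difference was 0.56 (SE 0.26, 1.48-fold, adjusted p = 0.464). It was 0.26 without the Reln knockout array and 0.75 without the Apoer2 knockout array (adjusted p = 0.620), and 0.26 with the cross as a covariate. Cplx3, a complexin of release sites, read 241.2, 207.5 and 168.8 in the reeler models and 162.2, 186.3 and 195.2 on the comparison arrays (0.15, SE 0.15). Moxd1, a relative of dopamine beta-hydroxylase, read 91.3, 150.5 and 122.0 in the reeler models and 189.8, 171.2 and 116.8 on the comparison arrays, where WT lay among the reeler values (-0.33, SE 0.20, adjusted p = 0.571). Nxph4, a neurexophilin, read 301.1 to 348.1 and 320.9 to 379.8 (-0.07, SE 0.11).

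**Figure D3:**
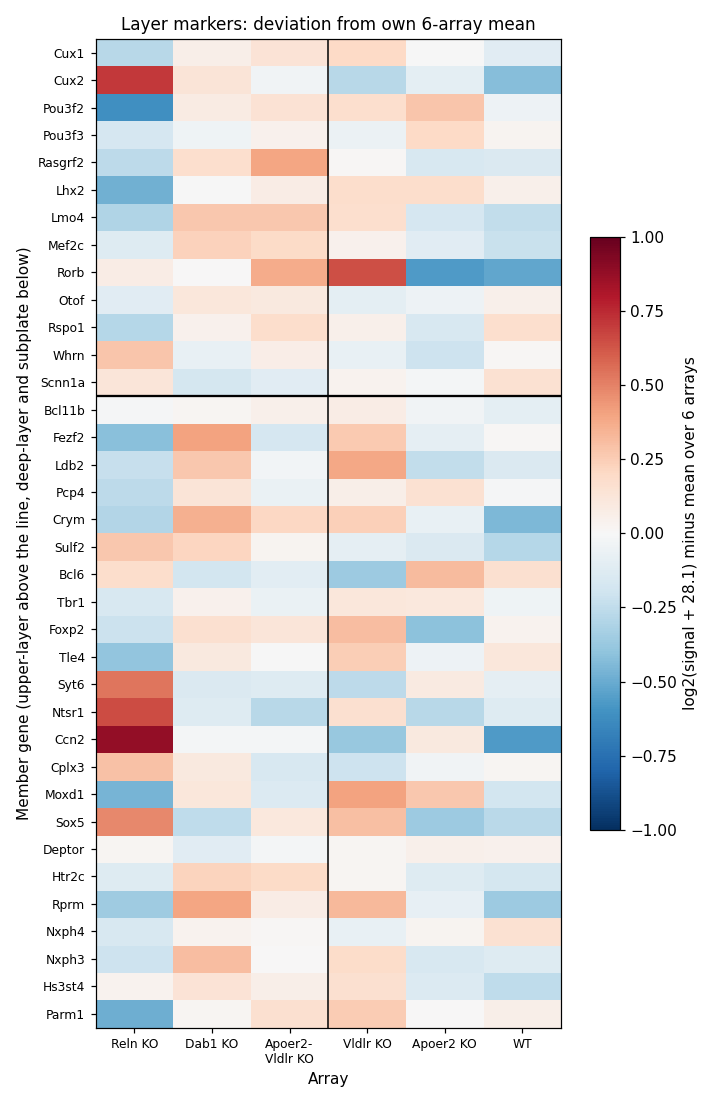
Colour shows log2(signal + 28.1) of each of the 36 members past the signal filter (rows, upper-layer genes above the line) on each of the 6 arrays (columns, reeler models left of the line), minus the gene's mean over the 6 arrays. The Reln knockout column holds the lowest value for 16 of 36 genes, and its highest deviations are those of Ccn2, Cux2 and Ntsr1. Ntsr1 passed the signal filter only through its value in that column.

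Members varied more between arrays than genes in general, with a median SD over the 6 arrays of 0.23 on the log2 scale (0.19 for upper-layer and 0.26 for deep-layer members) against 0.16 over all genes. The Reln knockout array was the lowest of the 6 for 16 of 36 members (44.4%), among them 8 of 13 upper-layer members, where it was lowest for 25.3% of all genes. It was the highest for 8 members (22.2%), as for 22.2% of all genes. The Vldlr knockout array was highest for 10 members (27.8%, against 13.6% of all genes), 8 of them deep-layer genes. The WT array was lowest for 9 (25% against 19.7%) and the double knockout array for 0 (12.1% of all genes).

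Each mutant was next set against the WT array, with no test because each genotype is 1 array. On the Reln knockout array 6 of 36 members (16.7%) were at least 1.5-fold higher than in WT on the log2(signal + 28.1) scale, against 4.65% of all genes, and 0 were at least 1.5-fold lower, against 5.77%. The higher ones were Ccn2 (2.72-fold), Cux2 (2.19-fold), Sox5 (1.68-fold), Ntsr1 (1.72-fold), Syt6 (1.54-fold) and Rorb (1.51-fold). Ntsr1 passed the signal filter only through its value on this array, so its place in this count is no separate result. A second Sox5 probe set past the filter read 136.7 on the Reln knockout array and 132.2 in WT. The other Cux2 probe sets read 245.1 against 199.6 and 231.5 against 227.7 on these arrays. Lowest on the Reln knockout array were Pou3f2 (1.47-fold lower) and Parm1 (1.46-fold lower). Upper-layer members had a median log2 difference of -0.12 there and deep-layer members one of 0.0075.

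On the Dab1 knockout array 2 members were at least 1.5-fold higher (2.54% of all genes), Crym (1.75-fold) and Rprm (1.69-fold), and 0 were lower (3.84%). Its lowest members were Bcl6 (1.27-fold lower) and Scnn1a (1.26-fold lower). The second Bcl6 probe set read 192.2 on the Dab1 knockout array and 158.5 in WT. On the double knockout array 2 members were higher (2.28% of all genes), Rorb (1.86-fold) and Crym (1.58-fold), and 0 lower (3.21%). Of its 13 upper-layer members 12 read above WT, with a median log2 difference of 0.20, against 52.4% of all genes above WT. Against the mean of the 3 comparison arrays, in place of WT, 9 members were at least 1.5-fold away on the Reln knockout array and 0 on the Dab1 and on the double knockout array. The share of all genes was not computed for that comparison, so these counts are no result about the members.

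The single receptor knockouts are not reeler models. On the Vldlr knockout array 4 members were at least 1.5-fold higher (1.77% of all genes), Rorb (2.24-fold), Crym (1.61-fold), Rprm (1.60-fold) and Moxd1 (0.59 on the log2 scale), and 0 lower (2.68%), with Bcl6 (1.44-fold lower) and Cplx3 (1.17-fold lower) at the bottom. The second Bcl6 probe set read 167.6 on the Vldlr knockout array and 158.5 in WT. On the Apoer2 knockout array 1 member was higher (1.17% of all genes), Ccn2 (1.59-fold), followed by Moxd1 (1.38-fold), and 0 were lower (1.17%), with Foxp2 (1.36-fold lower) and Rspo1 (1.25-fold lower) at the bottom. These comparisons share the WT array, so a low WT value, as for Crym, Ccn2 and Sulf2, enters each of them.

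The medians by array varied alongside those of genes of forebrain excitatory neurons. For those 9 genes the median difference from the WT array, in log2 units, was -0.15 for the Reln knockout, 0.28 for the Dab1 knockout, 0.31 for the double knockout, 0.21 for the Vldlr knockout and 0.03 for the Apoer2 knockout. The members' medians on the same arrays were -0.12, 0.13, 0.20, 0.14 and 0.07 for the upper layers and 0.0075, 0.12, 0.09, 0.20 and 0.05 for the deep layers and subplate. The median over all genes was within 0.016 of 0 on each array. With every array centred on the excitatory genes, which lowered the class difference of all genes to a median of -0.08, the upper-layer and deep-layer medians were -0.02 and -0.048. Cux2 (0.44) and Sulf2 (0.25) then overlapped between classes. The 6 members lower without overlap in that setting (9.02% of all genes) were Lhx2 (-0.36), Pou3f2 (-0.35), Parm1 (-0.30), Tle4 (-0.29), Pcp4 (-0.23) and Cux1 (-0.15), and the 2 higher ones (0.87%) were Mef2c (0.10) and Htr2c (0.10). No member passed the adjusted threshold there either. The part of excitatory neuron content in the members' differences was not tested further.

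**Figure D4:**
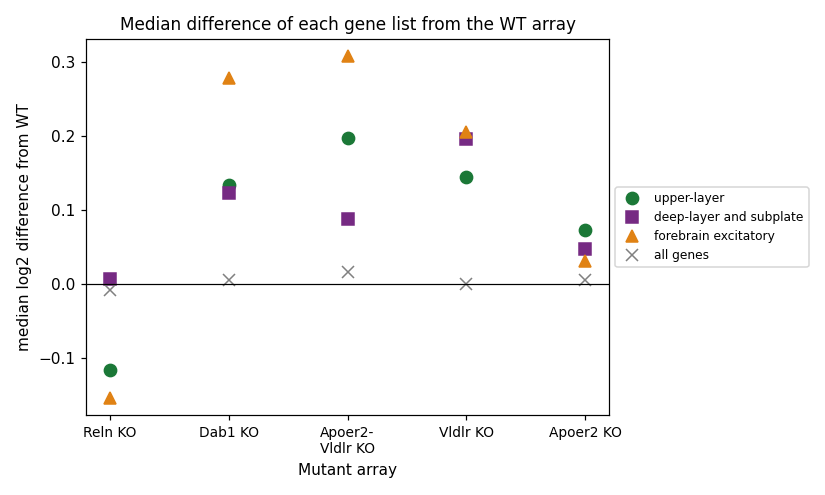
Median log2 difference from the WT array (y axis) of upper-layer members, deep-layer and subplate members, 9 forebrain excitatory genes and all genes, on each mutant array (x axis). The medians of the excitatory genes run from -0.15 on the Reln knockout to 0.31 on the double knockout array, and the all-gene medians lie next to 0.

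The balance of upper-layer to deep-layer signal was described by the mean log2 signal of the 13 upper-layer members minus that of the 23 deep-layer members. It was -0.24 on the Reln, -0.18 on the Dab1 and 0.0045 on the double knockout array, and -0.16 on the Vldlr knockout, -0.16 on the Apoer2 knockout and -0.13 on the WT array. The 3 reeler models therefore lay on both sides of the comparison arrays, at -0.14 ± 0.12 against -0.15 ± 0.019 (SD, n = 3 each).

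Within the receptor cross, the double knockout was compared with the mean of both single knockouts. No member was 1.5-fold away (0 of 36, against 2.72% of all genes). Rasgrf2 (0.46) and Rorb (0.33) were highest among members on the log2 scale and Moxd1 (-0.47) lowest. The other Rasgrf2 probe set past the filter read 377.6 on the double, 385.7 on the Vldlr and 301.2 on the Apoer2 knockout array. The upper-layer median was 0.18 and the deep-layer median -0.04, against 0.02 over all genes. The departure of the double knockout from the sum of the single knockout differences from WT was below 0 for 18 of 23 deep-layer members (48.0% of all genes), with Moxd1 (-0.998) and Rprm (-0.53) lowest, and for 6 of 13 upper-layer members. A low WT value by itself lowers this departure. WT was the lowest array for 7 of the 23 deep-layer members (30.4%), against 19.7% of all genes.

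Other layer markers outside the set were read in the same way. Of 12 further upper-layer genes past the filter, 0 passed the adjusted threshold, 7 lay above 0 and 5 below, and the median log2 difference was 0.07. Highest were Inhba, an activin subunit (0.72), and Wfs1, a protein of the endoplasmic reticulum (0.55), both highest on the Reln knockout array. Inhba read 589.4 there and 105.6 to 156.4 on the other 5 arrays. Wfs1 read 3174 there, 1247 on the Dab1 knockout and 1814 on the double knockout array, and 1301 to 1315 on the comparison arrays. Lowest were the adhesion protein Nectin3 (-0.44, adjusted p = 0.339) and the ephrin receptor Epha3 (-0.42, adjusted p = 0.429). Of 16 further deep-layer genes 0 passed, 10 lay above 0 and 6 below, with a median of 0.04. The nuclear receptor Nr4a2, also of the subplate and claustrum, was lowest, at 193.3, 343.0 and 283.8 in the reeler models and 374.3, 514.1 and 354.9 on the comparison arrays (-0.57, adjusted p = 0.395), followed by the cofactor Zfpm2 (-0.32, adjusted p = 0.396). In the upper-layer list 3 of 12 genes (25%) were lower without overlap, Nectin3, Epha3 and Stard8 (-0.38, adjusted p = 0.447, named after its value was seen), and in the deep-layer list 2 of 16 (12.5%), Nr4a2 and Zfpm2, against 8.67% of all genes. In both lists 0 were higher without overlap, against 9.04%, whereas the members had 2 higher and 0 lower. Highest were the natriuretic peptide receptor Npr3 (0.20) and the phosphatase Inpp4b (0.19).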

How the data were processed

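Gene expression was measured with 1 array per genotype. The deposited values are signal intensities on a linear scale, and the authors made them with MAS5 in Affymetrix Expression Console (versions unstated), per the submitters' processing notes. A signal is a summary of 1 probe set, so levels were not compared between genes by size. Medians were 86.5 to 92.3 per array, and the 27 bacterial control probe sets read at most 28.4 to 39.6. Every value of the probe sets used for the 37 members lay above these. Some dimmer probe sets of members read below them, and those enter the mean of all probe sets. Precision is limited by how few arrays there are.

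Of 45101 probe sets, 34958 named 1 gene in the platform annotation, 932 several and 9211 are unnamed here. Each gene took its brightest probe set (those ending in _x_at last), and genes with a mean signal of at least 89.0 were kept. Values were analysed as log2(signal + 28.1) with the lower quartile of all signals as pseudocount, so fold changes understate changes of dim genes. Classes were compared by limma 3.58.1 (R 4.3.3), using a trended prior and Benjamini-Hochberg adjustment over 11499 genes; the procedure was tested on simulated data. Since no genotype is repeated within a class, p-values rest on the spread among these 6 arrays alone. The members, the marker lists and the rule for named genes were chosen with earlier results of these data known, and the rule takes members past the threshold or without overlap, the 4 highest and 4 lowest of each layer set, the 2 highest and 2 lowest of each mutant, and the 2 highest and 2 lowest other layer markers. Alternatives were a pseudocount of 1 or 89.4, no filter or one at 297.5, quantile normalization, centring on excitatory neuron genes, the mean of all probe sets, every probe set, no trend, WT alone, a cross covariate, the mean of the comparison arrays and leaving out each array. The cross covariate marked the Reln and Dab1 knockout arrays together, which leaves the class difference to the double knockout array against the comparison arrays.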

Additional observations from a re-analysis of the deposited data

How the results depend on the processing

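No paired analysis was possible because each genotype is 1 array and the labels carry no replicate numbers. In all 17 alternatives to the class comparison 0 members passed the adjusted threshold. Of the 36 members 18 kept their sign in every setting whose filter they passed, and some of them, such as Sox5 and Rorb, did not pass the stricter filter. The share of all genes that kept their sign was not computed. Leaving out 1 array at a time gave 3 to 7 members higher (7 when the Reln KO array was omitted, 6 when the Vldlr KO array was) and 1 to 4 lower (4 without the WT array) without overlap, where all arrays gave 2 and 0. These settings put 12.5 to 16.3% of all genes higher and 11.7 to 16% lower. With WT as the only comparison array there were 11 (30.6%, against 28.7% of all genes) and 4 (11.1%, against 27.5%), with the mean of all probe sets 0 (7.85%) and 1 (8.96%), and with centring on excitatory genes 6 lower (16.7%, against 9.02%). That centring put the deep-layer median at -0.048. Signs turned for Tle4 with the mean of all probe sets (0.066) and for Moxd1 against WT alone (0.024). The Tle4 mean takes in a dim probe set below the filter (0.66), while those past the filter differed by -0.20 and -0.26. Signs also turned for Pou3f2 (0.013) and Parm1 (0.053) with the cross covariate. Under it the Reln knockout array, lowest for both (72.1 and 455.6), does not enter the difference. Why single arrays differed was not tested. Members at least 1.5-fold from WT numbered 6, 2, 2 and 4 on the Reln, Dab1, double and Vldlr knockout arrays. On the Reln knockout array there were 2 with the median as pseudocount, 2 with the stricter filter, which tests fewer genes, and 3 with the mean of all probe sets, but 8 with a pseudocount of 1, 7 with centring and 9 against the mean of the comparison arrays. On the Dab1 knockout array there were 4 with a pseudocount of 1, 5 with quantile normalization and 0 against that mean. On the double knockout array there were 1 with the stricter filter, 0 with centring and 0 against that mean, and on the Vldlr knockout array 2 with the stricter filter and 2 with centring. The share of all genes past 1.5-fold was not computed under these settings. How far these counts move with that share is therefore not known. With 1 array per genotype, a difference of a single mutant cannot be told apart from a difference between animals.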
